A study of Mus musculus with 30 samples.

Results

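The 7 genes described here act on MHC class II molecules after their chains have been made: H2-DMa, H2-DMb1 and H2-DMb2, which encode the chains of the peptide editor H2-DM, H2-Oa and H2-Ob, which encode the chains of its inhibitor H2-O, Ifi30, the lysosomal thiol reductase also called GILT, and Ctss, the protease cathepsin S. They were taken by gene name from a table of raw read counts over 46603 genes, of which 25626 had at least 1 count, and each of the 7 names matched 1 row. The RNA came from tumour-associated macrophages of C57BL/6 wild-type mice carrying subcutaneous tumours of 3LL-R cells, a Lewis lung carcinoma line of mouse origin. The macrophages were sorted by their MHC class II protein level into MHC-IIlo and MHC-IIhi cells. The 6 groups were MHC-IIlo cells cultured for 24 h with 20 mM sodium L-lactate, MHC-IIhi cells cultured likewise, MHC-IIlo cells cultured for 24 h without added lactate, MHC-IIhi cells cultured without it, and freshly isolated MHC-IIlo and MHC-IIhi cells lysed directly after sorting. Each group had 5 libraries, given as biological replicates in the labels, which do not say whether each came from a separate mouse, so the p-values measure the spread between these libraries. Fresh libraries were made from 30000 cells and cultured ones from 250000 cells. That input, any difference in the time of library preparation, and culture itself cannot be told apart.

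Newly made class II dimers carry the invariant chain, encoded by Cd74, which fills the peptide groove and routes the dimers to endosomes. Cathepsin S trims the invariant chain down to a short remnant, H2-DM releases that remnant and favours tightly bound peptides, and H2-O, best known in B cells and some dendritic cells, holds H2-DM back. GILT reduces disulphide bonds of captured antigens so that proteases can reach them. The genes for class II chains, H2-DM and Cd74 share a promoter layout of S, X and Y boxes that the transactivator CIITA reads, while Ifi30 and Ctss are better known as interferon-responsive lysosomal genes.

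The promoters of 4 of the members are shown here with any X or Y box letters marked. The stretches are from RefSeq's GRCm38.p6 windows, which span 250 bases before to 50 bases after each start, and all are cut so that they end before the start. Capitals mark X box letters, CTANNAACNNATGATG with N for any base, which are the bases shared by the first 3 of these windows, and Y box letters, GATTGG, so both were chosen with the members' own windows in view. H2-DMb1 lies at chr17:34153074-34153154 on the plus strand, H2-DMb2 at chr17:34145103-34145183 on the plus strand, H2-Ob at chr17:34238795-34238872 on the plus strand and H2-Oa at chr17:34092285-34092378 on the plus strand.
H2-DMb1: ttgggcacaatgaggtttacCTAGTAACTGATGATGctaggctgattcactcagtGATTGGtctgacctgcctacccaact
H2-DMb2: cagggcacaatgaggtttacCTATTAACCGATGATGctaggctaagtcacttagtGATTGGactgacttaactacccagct
H2-Ob: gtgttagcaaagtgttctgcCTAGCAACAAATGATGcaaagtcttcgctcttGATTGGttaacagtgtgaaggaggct
H2-Oa: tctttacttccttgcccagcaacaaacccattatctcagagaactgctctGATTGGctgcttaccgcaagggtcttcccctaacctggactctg

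The X box letters were built from stretches of H2-DMb1, H2-DMb2 and H2-Ob chosen for having Y box letters 10 to 30 bases downstream. Both boxes were thus required there in advance. The bases between them numbered 19, 19 and 16. Searched on both strands, the X box letters were found in 5 of 32851 windows (0.0152%), and those windows belong to H2-DMb1, H2-DMb2, H2-Ob, the class II beta chain gene H2-Eb1 and Frmd4b. The shorter Y box letters are common and were in 16.1% of windows. An X box match followed within 10 to 30 bases by Y box letters was in 4 windows, those of the same genes without Frmd4b. Of these genes, only H2-Eb1 was not used to build the letters. H2-Oa had the Y box letters alone, which says only that these X box letters are not in its window. The RefSeq starts of H2-DMa lay 9664 and 12350 bases from its start in the count table's annotation, so no promoter of it is shown. Those of H2-DMb2, H2-DMb1, H2-Oa and H2-Ob lay 1942, 119, 39 and 2 bases away.

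Neither lysosomal gene had the X box letters in its window. Ctss, at chr3:95526735-95526785 on the plus strand, held GAAA repeated after 2 other bases, letters of an interferon-stimulated response element that were in 3.44% of windows. Ifi30, at chr8:70766823-70766890 on the minus strand, held TCACGTGA, an E-box of the kind bound by lysosomal regulators of the TFEB family, which was in 0.974% of windows. Capitals mark these letters, again searched on both strands, and none of these matches is evidence that a factor was bound.
Ctss: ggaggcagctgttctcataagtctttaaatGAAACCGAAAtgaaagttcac
Ifi30: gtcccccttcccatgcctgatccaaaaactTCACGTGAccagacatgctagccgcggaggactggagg

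H2-DMb1 and H2-DMb2 are near copies, and this bears on how far their counts can be separated. Their GENCODE vM21 coding sequences are both 786 bases long and share 754 bases (95.9%), and 47.9% of all 50-base stretches are identical between them. Of the 32 differing bases, 19 lie between coding bases 206 and 295, the stretch shown here with the differing bases in capitals, on the plus strand of chromosome 17.
H2-DMb1: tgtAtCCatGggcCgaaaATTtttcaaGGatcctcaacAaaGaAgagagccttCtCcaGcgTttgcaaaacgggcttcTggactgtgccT
H2-DMb2: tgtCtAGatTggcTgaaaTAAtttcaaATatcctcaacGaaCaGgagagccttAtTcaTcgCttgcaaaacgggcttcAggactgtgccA
Reads from identical stretches may have been dropped or misplaced by the authors' counting, so the split between these genes is uncertain, and the sum of both is given beside the tests of H2-DMb2.

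On GRCm38, 5 members lie in the class II region of chromosome 17, all on the plus strand: H2-Oa (ENSMUSG00000024334, 34092340-34095234), H2-DMa (ENSMUSG00000037649, 34135182-34139101), H2-DMb2 (ENSMUSG00000037548, 34143307-34151553), H2-DMb1 (ENSMUSG00000079547, 34153072-34160230) and H2-Ob (ENSMUSG00000041538, 34238903-34245907). Ifi30 (ENSMUSG00000031838) is on chromosome 8 at 70762774-70766663 on the minus strand, and Ctss (ENSMUSG00000038642) on chromosome 3 at 95526786-95556403 on the plus strand. Whether the authors' counting used strand is not given in the sources used here. H2-Oa overlaps the antisense gene BC051537, which had at most 2 reads in a library, and Ctss overlaps Hmgb1-ps5, which had at most 81.

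Libraries held 16913250 to 31481548 counted reads. Levels are given as CPM, read counts scaled to a common library size with edgeR's TMM method over all 30 libraries, and differences as log2 fold changes with their standard error from edgeR's quasi-likelihood test, adjusted over all genes tested, with 0.05 as the threshold. One lactate MHC-IIlo library, number 5, stood apart: its TMM factor was 1.28, its 20 most abundant genes took 10.3% of reads against 17.5% to 18.8% in the others of its group, and its summed macrophage markers were 2930 CPM against a group median of 7739 CPM. The 10 macrophage markers were each above 1 CPM on average in every group, and their sums were 12485 to 16778 CPM in fresh MHC-IIlo and 8082 to 12002 CPM in fresh MHC-IIhi libraries. The cultured libraries could be placed in their group by the column headers but not tied to a sample record, and their numbers are those of the headers.

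The members spanned a wide range of levels. Per kilobase of gene model, fresh MHC-IIlo libraries averaged 3032 CPM per kb for Ctss, 575 for Ifi30, 64.6 for H2-DMa, 32.8 for H2-DMb1 and 3.89 for H2-DMb2. The same values in fresh MHC-IIhi libraries were 2459.8 for Ctss, 788 for Ifi30, 317 for H2-DMa, 315 for H2-DMb1, 53.4 for H2-DMb2, 4.37 for H2-Ob and 2.62 for H2-Oa. Ctss was among the most abundant genes of all, ranking 13th to 18th by reads in fresh MHC-IIlo libraries and 17th to 21st in fresh MHC-IIhi libraries. The chains of the inhibitor H2-O were the rarest members wherever they were compared per length in fresh MHC-IIhi cells.

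**Figure D1:**
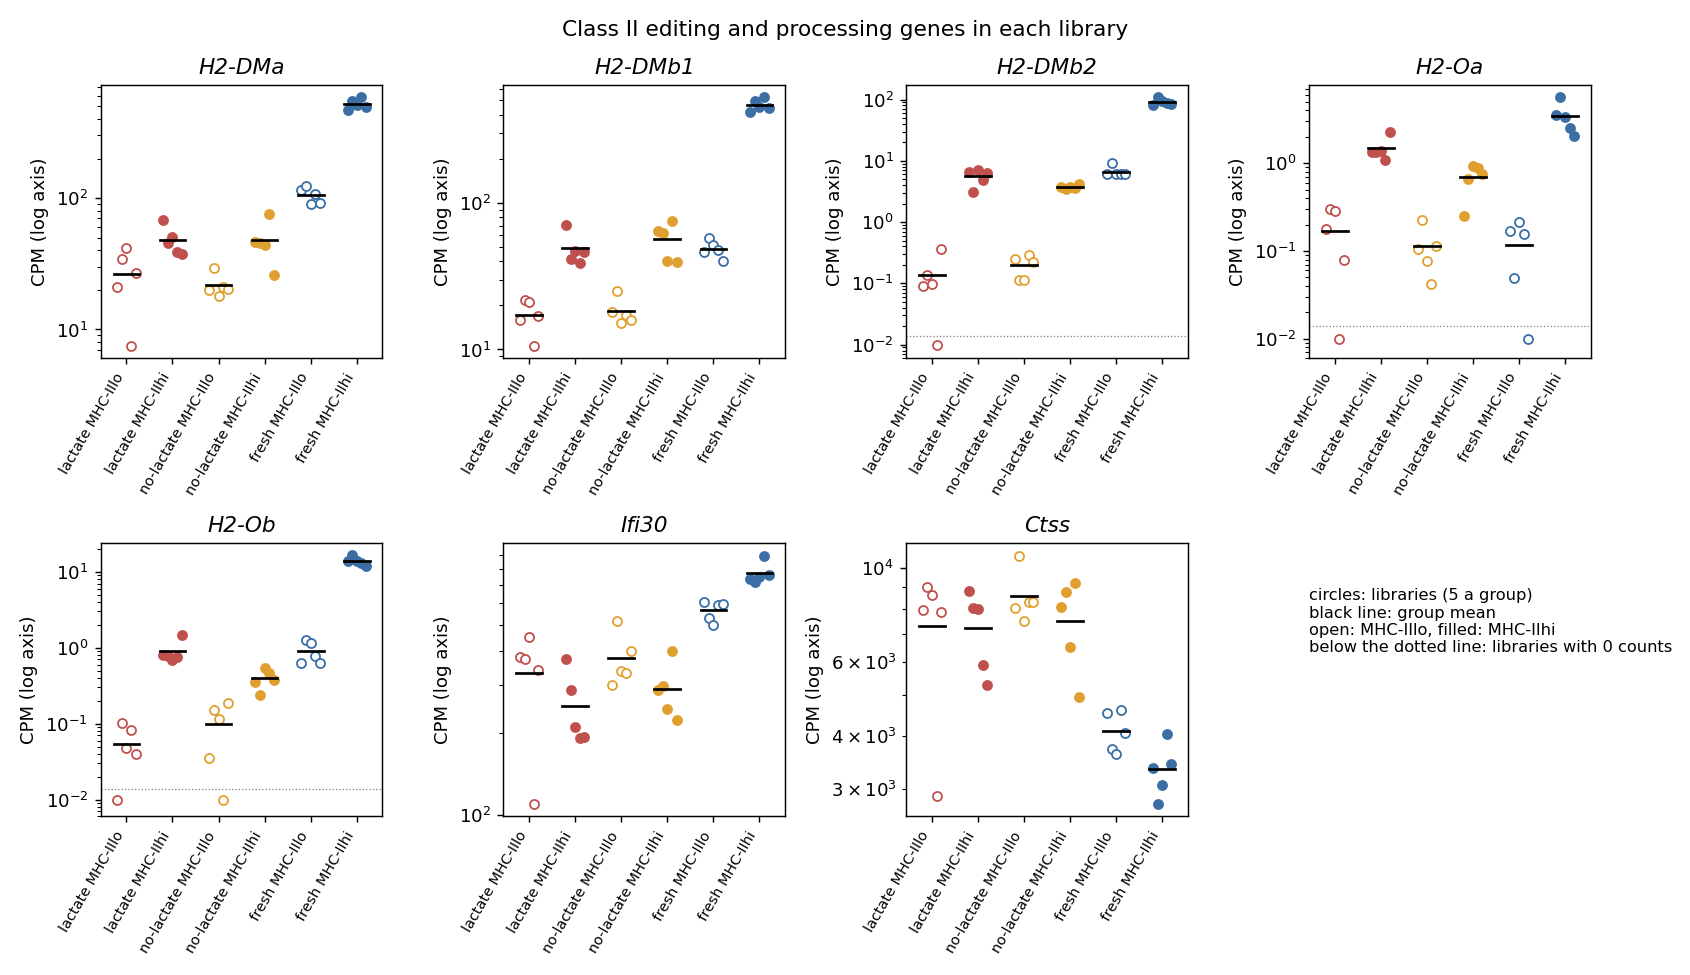
Level of each of the 7 genes in all 30 libraries, in TMM-scaled CPM on a log axis, with a panel per gene and a point per library in its group. H2-DM and H2-O genes are highest in fresh MHC-IIhi cells, whereas Ctss is highest in MHC-IIlo cells cultured without lactate, at a mean of 8575 CPM, and lowest in fresh MHC-IIhi cells, at 3340.3 CPM.

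Freshly sorted MHC-IIlo macrophages held far less mRNA of the H2-DM and H2-O chains than MHC-IIhi macrophages, slightly less Ifi30 and slightly more Ctss. The test called 29.2% of the 12787 genes tested in this comparison, 15.2% lower and 14% higher in MHC-IIlo, and among the 7 members 6 were lower and 1 higher. H2-Oa is counted there although it passed the filter on low counts only through the MHC-IIhi libraries. The median log2 fold change was -3.26 over the members and -0.00 over all genes tested. The libraries of the groups did not overlap for 6 of the 7 members, all but Ctss, nor for 21.3% of all genes. Since the cells were sorted on class II protein, a difference in the class II chain genes between them is no finding of its own and serves as a yardstick: H2-Ab1, the class II beta chain, had a log2 fold change of -5.77 ± 0.24, Cd74 of -4.35 ± 0.20 and Ciita, which encodes CIITA, of -5.18 ± 0.35. In bulk RNA, fewer cells expressing a gene and less RNA in each cell cannot be told apart.

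Of the H2-DM chains, H2-DMa, the alpha chain, had 116, 124, 90.2, 108 and 91.7 CPM in the 5 fresh MHC-IIlo libraries, against 465, 549.7, 507, 584 and 492 CPM in the 5 fresh MHC-IIhi libraries. The groups were far apart, the highest MHC-IIlo library lying well under the lowest MHC-IIhi library. H2-DMa was 4.90-fold lower in MHC-IIlo cells (log2 fold change -2.29 ± 0.10, edgeR adjusted p = 1.2e-08). H2-DMb1, the main beta chain gene here, had 46.4, 57.4, 52.0, 47.4 and 40.3 CPM in MHC-IIlo libraries, against 418, 499.7, 451, 525 and 446 CPM in MHC-IIhi libraries. These groups were separated more widely than those of H2-DMa, with little spread inside either. The difference was 9.59-fold (-3.26 ± 0.11, edgeR adjusted p = 1.3e-09), the 2nd smallest p of all genes tested.

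H2-DMb2, the other beta chain gene, had 5.99, 9.07, 6.06, 6.01 and 6.14 CPM in fresh MHC-IIlo libraries, against 81.6, 109, 94.8, 86.7 and 85.1 CPM in fresh MHC-IIhi libraries. Apart from MHC-IIlo library 2 the low group was tight, and the groups did not overlap. Its fold change was -3.78 ± 0.14 on the log2 scale (edgeR adjusted p = 1.8e-09), 13.7-fold lower in MHC-IIlo cells. With the reads of both beta chain genes summed, the log2 fold change was -3.33 (edgeR adjusted p = 1.3e-09). H2-DMb1 supplies most reads of that sum, which therefore says little of H2-DMb2 alone, and reads placed at the wrong copy were not measured.

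In fresh cells H2-DMa and H2-DMb1 were counted at like levels in the MHC-IIhi but not in the MHC-IIlo sort. The ratio leaves out H2-DMb2, and reads of H2-DMb1 lost to stretches shared with H2-DMb2 were not measured. Per kilobase and within a library, H2-DMb1 was 50.8% of H2-DMa in fresh MHC-IIlo cells (44.3% to 63.7% over the 5 libraries), against 99.5% in fresh MHC-IIhi cells (98.2% to 100.5%). The ranges did not overlap. After culture without lactate the ratio was 92.9% in MHC-IIlo (87.3% to 100.4%) and 134% in MHC-IIhi cells (99.9% to 169%), and with lactate 81.6% in MHC-IIlo (56.5% to 156%) and 112% in MHC-IIhi cells (100.03% to 137%), and the ranges of the sorts overlapped in both conditions. Relative to the class II chain H2-Ab1, H2-DMa was 123% per kilobase in fresh MHC-IIlo cells (79.0% to 169.8%), against 10.6% in fresh MHC-IIhi cells (10.2% to 11.01%). H2-DMa and H2-Ab1 mRNA were therefore of the same order in fresh MHC-IIlo cells and not in fresh MHC-IIhi cells. H2-Ab1 follows the sort and differed more (log2 fold change -5.77) than H2-DMa (-2.29), so this gap is no finding of its own.

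The H2-O chains were scarce in MHC-IIlo cells. H2-Oa, the alpha chain, had 0.171, 0.0488, 0.217, 0.157 and 0 CPM in fresh MHC-IIlo libraries, or 12 reads in all 5 together, against 3.60, 5.70, 3.35, 2.53 and 2.05 CPM in fresh MHC-IIhi libraries. Each MHC-IIhi library exceeded each MHC-IIlo library, and the library with no read allows up to 0.159 CPM at a floor of 3 counts. The fitted log2 fold change was -4.77 ± 0.52 (edgeR adjusted p = 2.6e-05), and its size depends on the prior count because one side is near 0. H2-Ob, the beta chain, had 0.627, 1.27, 1.17, 0.784 and 0.636 CPM in fresh MHC-IIlo libraries, against 13.8, 16.4, 13.8, 12.9 and 11.98 CPM in fresh MHC-IIhi libraries. Here both groups had reads in every library, at least 11 in MHC-IIlo and at least 234 in MHC-IIhi. H2-Ob was 15.1-fold lower in MHC-IIlo cells (-3.91 ± 0.22, edgeR adjusted p = 1.0e-07).

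The inhibitor's mRNA was a small part of the editor's in both sorts. Per kilobase, H2-Ob was 0.861% of H2-DMb1 in fresh MHC-IIlo cells and 1.39% in fresh MHC-IIhi cells, and H2-Oa was 0.132% and 0.788% of H2-DMa in the same groups.

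Because H2-O is known from B cells and dendritic cells, their markers are given beside it. The sum of all 8 B cell markers, carried by Pax5 and Cd22, was 32.6 to 45.1 CPM in fresh MHC-IIlo and 34.1 to 53.4 CPM in fresh MHC-IIhi libraries, so the ranges overlapped. Single markers went either way: Cd22 averaged 31.7 CPM in fresh MHC-IIlo and 21.01 CPM in fresh MHC-IIhi libraries and Pax5 5.96 and 6.36 CPM, whereas Cd79a averaged 0.0260 and 1.39 CPM, Cd79b 0.695 and 2.18 CPM, and Ighm 0.929 and 8.33 CPM. The summed dendritic cell markers were 71.5 to 102 CPM in fresh MHC-IIlo and 621 to 740.0 CPM in fresh MHC-IIhi libraries. Most of that sum was Itgax (CD11c), at 79.0 CPM over the MHC-IIlo libraries, against 632 CPM over the MHC-IIhi libraries, while Xcr1 was at 0 in all fresh MHC-IIlo libraries. The dendritic cell sum and some B cell markers thus differed with the members, the B cell sum did not, and their part in the results was not tested.

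Ifi30 and Ctss stood apart from the other members in size. Ifi30 had 606, 529.6, 498, 590.1 and 593 CPM in fresh MHC-IIlo libraries, against 736, 718, 747, 896 and 763 CPM in fresh MHC-IIhi libraries. The groups did not overlap, although the gap between them was small. It was 1.37-fold lower in MHC-IIlo cells (-0.45 ± 0.08, edgeR adjusted p = 0.000815), a call lost when all 30 libraries were fitted together (adjusted p = 0.186). With limma on log2(FPKM + 1) from the authors' FPKM, the log2 fold change of Ifi30 was only -0.17 (limma adjusted p = 0.0296). Ctss had 4536, 3731, 3624, 4626 and 4070.2 CPM in fresh MHC-IIlo libraries, against 3374, 2766, 3063, 4059 and 3439 CPM in fresh MHC-IIhi libraries. The ranges overlapped, since MHC-IIhi library 4 lay above 2 of the MHC-IIlo libraries. It was 1.23-fold higher in MHC-IIlo cells at the edge of the threshold (0.30 ± 0.11, edgeR adjusted p = 0.0497). That call was lost without any one of 7 of the 10 libraries, MHC-IIlo 1, 4 or 5 and MHC-IIhi 1, 2, 3 or 5 (adjusted p of 0.0694 to 0.118), and with 3 other settings.

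Ratios within a library are given as a description. Per kilobase, Ctss was 8.27-fold the level of Cd74, the invariant chain it cleaves, in fresh MHC-IIlo cells, against 0.319-fold in fresh MHC-IIhi cells, a gap made almost wholly by Cd74, one of the class II genes that follow the sort. Ifi30 was 19.002% of Ctss per kilobase in fresh MHC-IIlo cells, against 32.2% in fresh MHC-IIhi cells.

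Lists of related genes placed the members among the rest of the pathway. Of the classical class II chains and Ciita, all 5 tested genes were lower in fresh MHC-IIlo cells, the lowest being H2-Eb1 (-6.60) and H2-Aa (-6.06), the beta and alpha chains of I-E and I-A. None of 8 factors that bind class II promoters, such as the RFX and NF-Y subunits, passed the test. Of 17 endosomal proteases and cystatins, the class to which Ctss belongs, 8 were higher and 3 lower in MHC-IIlo cells. Ctsk (1.60) and Ctsb (1.41), both cathepsins, were the highest, and the protease inhibitors Cst3 (-0.79) and Cst7 (-2.23) the lowest. Of 12 trafficking and turnover genes, 7 were higher and 2 lower, from Tpp1 (1.02), a lysosomal peptidase, and Lamp1 (0.93), a lysosomal membrane protein, to the tetraspanin Cd9 (-0.61) and March1 (-0.73), the ligase that marks class II for degradation. Of 10 interferon-gamma signalling genes none was higher and 5 were lower, among them Jak2 (-0.83) and Socs1 (-0.84). Of 14 class I loading genes 1 was higher, B2m (0.52), the class I light chain, and 6 were lower, among them the peptide transporter gene Tap1 (-0.59) and the immunoproteasome gene Psmb8 (-0.64).

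**Figure D2:**
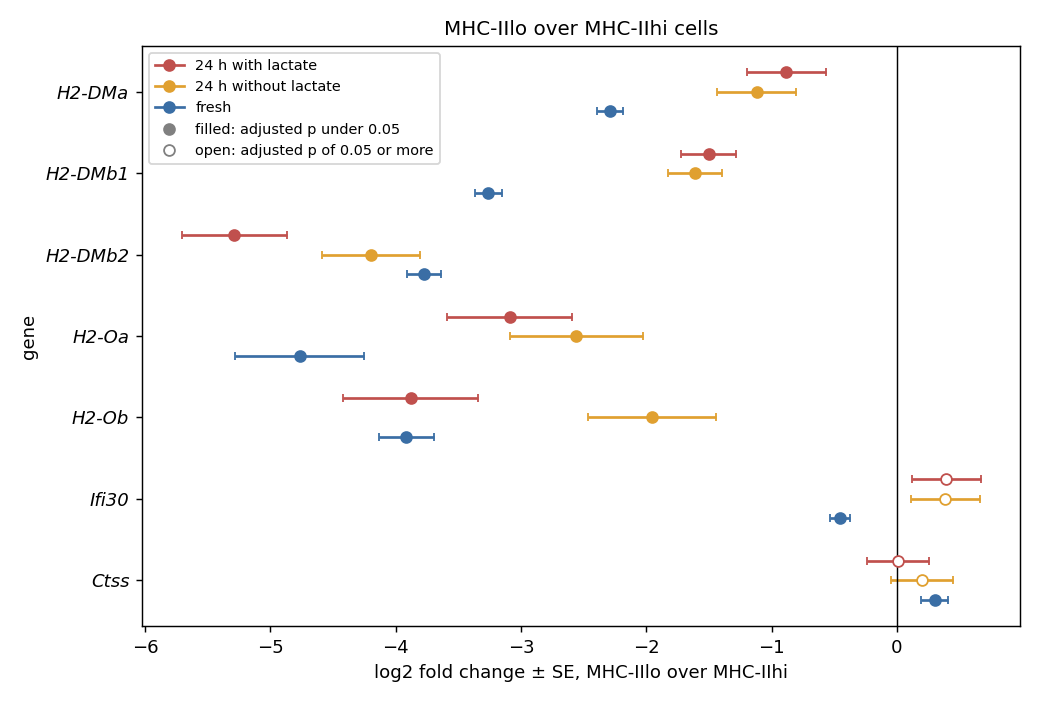
Log2 fold change of MHC-IIlo over MHC-IIhi for each member in fresh cells, no-lactate cultures and lactate cultures, with bars of 1 standard error. The differences of H2-DMa and H2-DMb1 are nearer 0 in both cultures than in fresh cells, that of H2-DMb2 is not, and Ifi30 and Ctss lie near 0 throughout.

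After 24 h of culture without lactate the H2-DM and H2-O chains were still lower in MHC-IIlo cells, whereas Ifi30 and Ctss did not pass the test. This comparison called 20.8% of 13593 genes, 11.6% lower and 9.20% higher in MHC-IIlo. Among the 7 members 5 were lower and none higher, with a median log2 fold change of -1.61, against -0.01 over all genes tested. The groups did not overlap for 4 members, H2-DMb1, H2-DMb2, H2-Oa and H2-Ob, nor for 18.9% of all genes. H2-DMb2 passed the filter on low counts only through the MHC-IIhi groups, and H2-Oa and H2-Ob only through the lactate MHC-IIhi group.

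H2-DMa had 19.8, 29.2, 18.04, 21.1 and 20.2 CPM in no-lactate MHC-IIlo libraries, against 46.5, 45.6, 44.1, 75.6 and 25.96 CPM in no-lactate MHC-IIhi libraries. The ranges overlapped through MHC-IIlo library 3 and MHC-IIhi library 7, which was the lowest of its group. The difference was 2.17-fold (-1.12 ± 0.32, edgeR adjusted p = 0.0142), and it did not pass without MHC-IIhi library 6, the highest (-0.90, adjusted p = 0.0506). H2-DMb1 had 18.03, 25.2, 15.1, 17.2 and 15.9 CPM in MHC-IIlo libraries, against 64.2, 62.3, 39.9, 75.4 and 39.6 CPM in MHC-IIhi libraries. All MHC-IIhi libraries were above all MHC-IIlo libraries, and the log2 fold change was -1.61 ± 0.22 (edgeR adjusted p = 1.3e-05).

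H2-DMb2 was close to absent from cultured MHC-IIlo cells. It had 0.245, 0.114, 0.114, 0.293 and 0.226 CPM in no-lactate MHC-IIlo libraries, 26 reads in all, against 3.68, 3.49, 3.67, 3.59 and 4.19 CPM in no-lactate MHC-IIhi libraries. The groups were more than an order of magnitude apart, and the fitted log2 fold change was -4.20 ± 0.39 (edgeR adjusted p = 1.7e-07). Summed with H2-DMb1, which supplies nearly all reads, the beta chain genes had a log2 fold change of -1.69 (adjusted p = 5.6e-06).

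H2-Oa had 0.105, 0.228, 0.0761, 0.0418 and 0.113 CPM in no-lactate MHC-IIlo libraries, against 0.250, 0.670, 0.937, 0.886 and 0.756 CPM in no-lactate MHC-IIhi libraries. The lowest MHC-IIhi library, number 3, lay just above the highest MHC-IIlo library. H2-Ob had 0.0350, 0.152, 0.114, 0 and 0.188 CPM in MHC-IIlo libraries, against 0.357, 0.239, 0.547, 0.466 and 0.378 CPM in MHC-IIhi libraries. Here too the groups did not overlap, although no library of either group had more than 14 reads, and the MHC-IIlo library without a read allows up to 0.125 CPM. The fitted log2 fold changes were -2.56 ± 0.53 for H2-Oa (edgeR adjusted p = 0.00138) and -1.96 ± 0.51 for H2-Ob (edgeR adjusted p = 0.0084).

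Ifi30 had 299.7, 514, 337, 333 and 399 CPM in no-lactate MHC-IIlo libraries, against 288, 298, 244, 399 and 223 CPM in no-lactate MHC-IIhi libraries. Ctss had 8054, 10706, 7482, 8337 and 8295 CPM in MHC-IIlo libraries, against 8080.0, 8757, 6522, 9227 and 4956 CPM in MHC-IIhi libraries. For both genes the groups overlapped over much of their range. The log2 fold changes were 0.39 ± 0.27 for Ifi30 (edgeR adjusted p = 0.358) and 0.20 ± 0.25 for Ctss (edgeR adjusted p = 0.635).

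In the presence of lactate the members were ordered much as without it. Here 22.4% of genes were called, 13.3% lower and 9.13% higher in MHC-IIlo, and again 5 members were lower and none higher, with a median of -1.50 against 0.02 over all genes. The same 4 members had groups that did not overlap, as had 12.8% of all genes. Of these 4, H2-DMb2 passed the filter on low counts only through the MHC-IIhi groups, and H2-Oa and H2-Ob only through lactate MHC-IIhi. The counts and the median above thus include members kept for being high on the MHC-IIhi side. H2-DMb1 had 15.996, 21.7, 21.2, 10.6 and 17.02 CPM in lactate MHC-IIlo libraries, against 71.0, 41.2, 47.2, 38.7 and 46.4 CPM in lactate MHC-IIhi libraries. The groups were apart and the log2 fold change was -1.50 ± 0.22 (edgeR adjusted p = 3.4e-05). H2-DMb2 had 0.0889, 0.135, 0.0962, 0 and 0.360 CPM in lactate MHC-IIlo libraries, against 6.45, 3.11, 7.15, 4.89 and 6.38 CPM in lactate MHC-IIhi libraries. The groups were far apart, the MHC-IIlo libraries holding 17 reads in all, and the library at 0 allows up to 0.125 CPM. Its fitted log2 fold change was -5.29 ± 0.42 (edgeR adjusted p = 2.2e-08), and that of the summed beta chain genes was -1.65 (adjusted p = 8.9e-06).

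H2-DMa had 21.1, 34.1, 41.5, 7.51 and 26.9 CPM in lactate MHC-IIlo libraries, against 67.7, 45.5, 50.9, 38.7 and 37.6 CPM in lactate MHC-IIhi libraries. MHC-IIlo library 4 lay above the 2 lowest MHC-IIhi libraries, and MHC-IIlo library 5, which stood apart in its whole profile, was far below the rest. The log2 fold change was -0.88 ± 0.31 (edgeR adjusted p = 0.0481), a call that rests on the exact set of libraries. Among the 20 fits that each left out 1 cultured library, 17 lost it (adjusted p of 0.0507 to 0.127), and it passed only without lactate MHC-IIlo 4, no-lactate MHC-IIhi 6 or no-lactate MHC-IIhi 7. Without lactate MHC-IIlo 5 the log2 fold change was -0.63 (adjusted p = 0.0646).

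H2-Oa had 0.178, 0.304, 0.288, 0 and 0.0799 CPM in lactate MHC-IIlo libraries, against 1.36, 1.35, 1.39, 1.09 and 2.28 CPM in lactate MHC-IIhi libraries. H2-Ob had 0, 0.101, 0.0481, 0.0834 and 0.0399 CPM in MHC-IIlo libraries, or 7 reads in all, against 0.811, 0.789, 0.694, 0.761 and 1.49 CPM in MHC-IIhi libraries. Neither gene had overlapping groups, and MHC-IIhi library 6 was the highest for both. The fitted log2 fold changes were -3.09 ± 0.50 for H2-Oa (edgeR adjusted p = 0.000123) and -3.88 ± 0.54 for H2-Ob (edgeR adjusted p = 2.2e-05). The libraries without a read allow up to 0.125 CPM of H2-Oa and 0.133 CPM of H2-Ob.

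Ifi30 had 378, 374, 449.8, 109 and 341 CPM in lactate MHC-IIlo libraries, against 373, 287, 211, 191 and 192 CPM in lactate MHC-IIhi libraries. Ctss had 7971, 9034, 8634, 2897 and 7864 CPM in MHC-IIlo libraries, against 8823, 8043, 7989, 5903 and 5301 CPM in MHC-IIhi libraries. MHC-IIlo library 5 was the lowest of all 10 libraries for both genes, while 3 of its 4 companions lay above all MHC-IIhi libraries for Ifi30, by little in 2 of them. The log2 fold change of Ifi30 was 0.39 ± 0.27 (edgeR adjusted p = 0.330) with that library and 0.63 (adjusted p = 0.0266) without it, and that of Ctss was 0.01 ± 0.25 (edgeR adjusted p = 0.984).

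The classical class II genes had larger log2 fold changes between the cultured sorts than H2-DMa and H2-DMb1, while H2-DMb2 was closer to them, though no test compared genes. H2-Ab1 had log2 fold changes of -5.95 with lactate and -5.25 without, Cd74 of -5.48 and -4.86, and Ciita of -6.60 and -4.34. All 6 tested classical chains and Ciita were lower in MHC-IIlo cells in both cultures. Of the promoter-binding factors, 2 of 8 were lower in both, Rfx5, an RFX subunit, at -0.83 with lactate and -1.0004 without, and Creb1 at -0.54 and -0.49. Of the 17 proteases and cystatins, 5 were higher and 3 lower with lactate, and 5 higher and 2 lower without. The extremes were Ctsf at 1.76 and Cst7 at -2.12 with lactate, and Ctsk at 1.66 and Cst7 at -1.57 without.

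Of the 12 trafficking genes, 5 were higher and 1 lower with lactate, and 5 higher and 3 lower without. March1 was the lowest in both, at -1.81 with lactate and -1.097 without, and the lysosomal tetraspanin Cd63 the highest, at 1.19 and 1.09. Of 10 interferon-gamma genes, none was higher and 7 were lower with lactate, and 1 was higher and 5 lower without, Jak2 standing at -1.98 and -1.62. Of 14 class I loading genes, 1 was higher and 3 lower with lactate, and 1 higher and 4 lower without, including Nlrc5, the class I transactivator, at -1.21 and -0.69. Dendritic cell markers summed to 7.72 to 13.1 CPM in lactate MHC-IIlo and 123 to 335 CPM in lactate MHC-IIhi libraries, and to 11.2 to 20.9 CPM in no-lactate MHC-IIlo and 138 to 317 CPM in no-lactate MHC-IIhi libraries. B cell markers summed to 52.9 to 68.4 CPM in lactate MHC-IIlo and 51.1 to 58.6 CPM in lactate MHC-IIhi libraries, and to 65.0 to 78.2 CPM in no-lactate MHC-IIlo and 45.3 to 74.3 CPM in no-lactate MHC-IIhi libraries. Within that sum Ighm averaged 0.0999 CPM in lactate MHC-IIlo and 1.12 CPM in lactate MHC-IIhi libraries, and 0.271 CPM in no-lactate MHC-IIlo and 1.80 CPM in no-lactate MHC-IIhi libraries. Their part in these results was not tested.

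Compared with fresh cells of the same sort, cells cultured for 24 h without lactate had much lower H2-DM and H2-O mRNA, lower Ifi30 and more Ctss. In MHC-IIhi cells 62.0% of 13682 genes were called, 30.4% lower and 31.6% higher in culture, and 6 members were lower and 1 higher, with a median of -3.05 against 0.01 over all genes. In MHC-IIlo cells 57.5% were called, 29.9% lower and 27.6% higher, and 5 members were lower, 1 was higher and H2-Oa had too few reads. The median there was -1.40, against -0.01 over all genes. With most genes called, the number of members called says little by itself, and the sizes say more. The groups did not overlap for 7 members in MHC-IIhi cells, as for 44.2% of all genes, and for 5 in MHC-IIlo cells, as for 45.1%. H2-Oa passed the filter only through fresh MHC-IIhi libraries and H2-Ob only through the fresh groups.

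**Figure D3:**
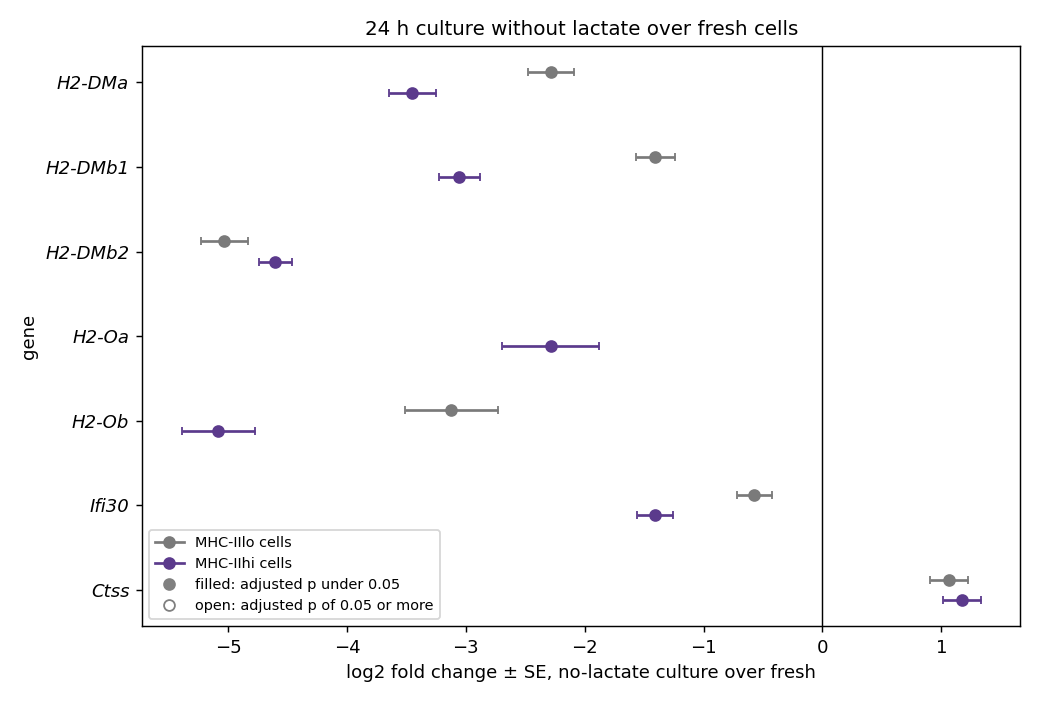
Log2 fold change of no-lactate culture over fresh cells for each member, in MHC-IIlo and MHC-IIhi cells, with bars of 1 standard error. H2-Oa in MHC-IIlo is left out because both groups averaged 3 reads or fewer per library. Ctss is the only member above 0 in both sorts, at 1.07 in MHC-IIlo and 1.17 in MHC-IIhi.

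Using the levels listed above, H2-DMa averaged 21.7 ± 4.36 CPM in cultured and 106 ± 14.9 CPM in fresh MHC-IIlo cells, and 47.6 ± 17.8 CPM in cultured and 519.7 ± 47.2 CPM in fresh MHC-IIhi cells (SD, n = 5 each). No cultured library reached the lowest fresh library of its sort. The log2 fold changes of culture were -2.28 ± 0.19 in MHC-IIlo (edgeR adjusted p = 1.7e-09) and -3.45 ± 0.20 in MHC-IIhi (edgeR adjusted p = 3.5e-12). H2-DMb1 averaged 18.3 ± 4.01 CPM in cultured and 48.7 ± 6.39 CPM in fresh MHC-IIlo cells, and 56.3 ± 15.9 CPM in cultured and 468 ± 43.4 CPM in fresh MHC-IIhi cells. Again the groups did not overlap in either sort, and cultured MHC-IIhi cells were near the level of fresh MHC-IIlo cells. Its log2 fold changes were -1.40 ± 0.16 in MHC-IIlo (edgeR adjusted p = 2.5e-07) and -3.05 ± 0.17 in MHC-IIhi (edgeR adjusted p = 2.0e-12).

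H2-DMb2 averaged 0.198 ± 0.0807 CPM in cultured and 6.65 ± 1.35 CPM in fresh MHC-IIlo cells, and 3.73 ± 0.270 CPM in cultured and 91.4 ± 10.8 CPM in fresh MHC-IIhi cells. It was 32.7-fold lower in cultured than in fresh MHC-IIlo cells (-5.03 ± 0.20, edgeR adjusted p = 9.7e-15) and 24.3-fold lower in cultured than in fresh MHC-IIhi cells (-4.60 ± 0.14, edgeR adjusted p = 2.2e-16). The groups were far apart in both sorts. With both beta chain genes summed, the log2 fold changes were -1.57 in MHC-IIlo and -3.22 in MHC-IIhi, close to those of H2-DMb1.

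The make-up of the beta chain mRNA therefore differed with culture as well as with the sort. H2-DMb2 supplied 1.12% ± 0.504 of the H2-DMb reads in cultured (range 0.450% to 1.67%) and 11.998% ± 1.37 in fresh MHC-IIlo cells (10.4% to 13.6%). In MHC-IIhi cells it supplied 6.65% ± 2.20 in cultured (4.55% to 9.56%) and 16.4% ± 1.43 in fresh libraries (14.2% to 17.9%). The ranges of cultured and fresh libraries were separate in each sort, and those of MHC-IIlo and MHC-IIhi were separate in fresh and in cultured cells. With lactate the share was 0.739% ± 0.782 in MHC-IIlo (0% to 2.07%) and 10.4% ± 2.59 in MHC-IIhi cells (7.02% to 13.2%), overlapping the no-lactate range of the same sort in both. These shares carry the doubt on split reads stated above, whose size in each library was not measured.

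**Figure D4:**
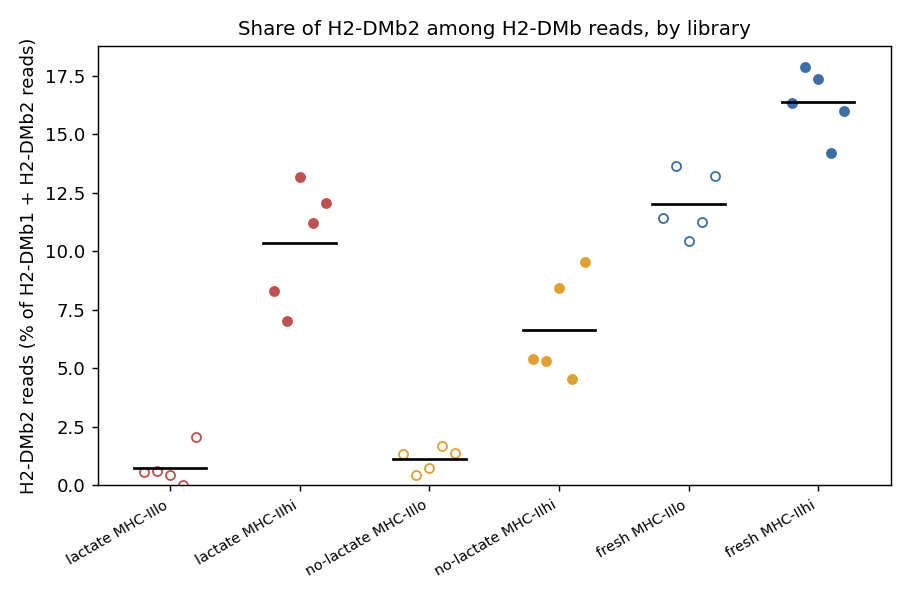
Share of H2-DMb reads that were counted for H2-DMb2, in percent, with a point per library and a line at the mean of each group of 5. Fresh MHC-IIhi libraries lie highest, at 14.2% to 17.9%, and both cultured MHC-IIlo groups lie lowest, at 0% to 2.07%.

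Of the inhibitor chains, H2-Oa averaged 0.113 ± 0.0701 CPM in cultured and 0.119 ± 0.0905 CPM in fresh MHC-IIlo cells, 15 and 12 reads over the 5 libraries of each, too few for a fold change. In MHC-IIhi cells it averaged 0.700 ± 0.273 CPM in cultured and 3.45 ± 1.40 CPM in fresh libraries, without overlap (-2.28 ± 0.41, edgeR adjusted p = 5.4e-05). H2-Ob averaged 0.0978 ± 0.0788 CPM in cultured and 0.897 ± 0.302 CPM in fresh MHC-IIlo cells (-3.12 ± 0.39, edgeR adjusted p = 7.1e-07), a fitted size that depends on the prior count. In MHC-IIhi cells H2-Ob averaged 0.398 ± 0.116 CPM in cultured and 13.8 ± 1.67 CPM in fresh libraries, 33.9-fold lower in culture (-5.08 ± 0.31, edgeR adjusted p = 7.2e-12). The chains differed in size of change, though this was not tested between genes. In cultured MHC-IIhi cells H2-Ob was 0.350% of H2-DMb1 per kilobase, against 1.39% in fresh ones, while H2-Oa was 1.83% of H2-DMa, against 0.788%.

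Ifi30 averaged 377 ± 85.0 CPM in cultured and 563 ± 46.9 CPM in fresh MHC-IIlo cells, and 290.3 ± 67.9 CPM in cultured and 772 ± 71.0 CPM in fresh MHC-IIhi cells. Cultured MHC-IIlo library 3 reached into the fresh range, and in MHC-IIhi cells the groups were separate. The log2 fold changes were -0.57 ± 0.15 in MHC-IIlo (edgeR adjusted p = 0.00194) and -1.41 ± 0.15 in MHC-IIhi (edgeR adjusted p = 3.8e-08). Ctss, in contrast, averaged 8575 ± 1239 CPM in cultured and 4117 ± 455 CPM in fresh MHC-IIlo cells, and 7508 ± 1756 CPM in cultured and 3340.3 ± 483 CPM in fresh MHC-IIhi cells. Every cultured library exceeded every fresh library of its sort. It was 2.09-fold higher in MHC-IIlo (1.07 ± 0.16, edgeR adjusted p = 5.9e-06) and 2.25-fold higher in MHC-IIhi (1.17 ± 0.16, edgeR adjusted p = 1.4e-06). Ifi30 came to 6.02% of Ctss per kilobase in cultured against 19.002% in fresh MHC-IIlo cells, and to 5.38% against 32.2% in MHC-IIhi cells.

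Whether culture acted alike in the sorts was tested by the interaction, which equals the change of the MHC-IIlo to MHC-IIhi difference between culture and fresh cells. It passed for 14.3% of genes, 6.03% with the higher culture effect in MHC-IIlo and 8.27% with the lower, and for 4 members, all with the higher effect in MHC-IIlo. These were H2-DMb1 (1.65 ± 0.23, edgeR adjusted p = 4.4e-05), H2-DMa (1.17 ± 0.26, edgeR adjusted p = 0.00406), Ifi30 (0.84 ± 0.20, edgeR adjusted p = 0.00817) and H2-Ob (1.96 ± 0.58, edgeR adjusted p = 0.0269). H2-DMb1, H2-DMa and Ifi30 therefore fell less on the log2 scale in MHC-IIlo than in MHC-IIhi cells in this fit, and with all 30 libraries in 1 fit H2-DMa (adjusted p = 0.0504) and Ifi30 (adjusted p = 0.118) no longer passed. Nothing is read from the value of H2-Ob, because its 5 no-lactate MHC-IIlo libraries held 13 reads in all, so that its fall there was limited by the floor, and it was kept only through the fresh groups. Its call was also lost without no-lactate MHC-IIlo 3 (1.76, adjusted p = 0.0871), 4 (1.91, adjusted p = 0.0572) or 6 (1.61, adjusted p = 0.127). H2-DMb2 (-0.43 ± 0.25, edgeR adjusted p = 0.297) and Ctss (-0.11, edgeR adjusted p = 0.805) did not pass. For H2-Oa, whose MHC-IIlo groups were at the floor, only the edgeR adjusted p of 0.0624 is given.

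The H2-DMb pair split in that test, the summed genes having an interaction of 1.64 (edgeR adjusted p = 2.8e-05) like H2-DMb1 alone. None of H2-Ab1 (0.53), Cd74 (-0.51) and Ciita (0.85) passed it. Against fresh cells these classical genes were lower in culture too, H2-Ab1 with log2 fold changes of -1.56 in MHC-IIlo and -2.09 in MHC-IIhi, Cd74 of -2.41 and -1.90, and Ciita of -2.49 and -3.33. The effects of culture were thus larger for H2-DMa (-3.45) than for H2-Ab1 in MHC-IIhi cells, though that contrast between genes was not tested.

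Of the 6 classical chains and Ciita, 5 were lower and none higher in each sort. Of 14 class I loading genes, the MHC-IIlo sort had 12 higher and 1 lower and the MHC-IIhi sort 13 higher and none lower, with Tapbp, the tapasin gene, at 2.19 in MHC-IIlo and 2.23 in MHC-IIhi and Nlrc5 at 2.27 in MHC-IIhi. The lower one was Pdia3 (-0.23). Of 10 interferon-gamma genes, the MHC-IIlo sort had 6 higher and 2 lower and the MHC-IIhi sort 7 higher and 2 lower. Irf1, an interferon-induced factor, was at 2.32 in MHC-IIlo and 2.84 in MHC-IIhi, and the receptor gene Ifngr1 at -1.51 and -2.32.

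Of 18 proteases and cystatins, the MHC-IIlo sort had 10 higher and 2 lower and the MHC-IIhi sort 11 higher and 4 lower, with Ctsk at 2.27 and 2.21 and the dipeptidyl peptidase gene Ctsc at -2.60 in MHC-IIlo. Of 12 trafficking genes, the counts were 3 higher and 2 lower in MHC-IIlo, against 4 higher and 2 lower in MHC-IIhi. Cd83, which opposes class II degradation, was the lowest in both, at -3.31 and -2.22. Of 8 promoter-binding factors, they were again 3 higher and 2 lower in MHC-IIlo, against 4 higher and 2 lower in MHC-IIhi, Atf1 leading at 1.64 and 1.04. Markers of these cells also differed with culture, in both directions. Macrophage markers summed to 6484 to 9250 CPM in cultured and 12485 to 16778 CPM in fresh MHC-IIlo libraries, and to 4897 to 8373 CPM in cultured and 8082 to 12002 CPM in fresh MHC-IIhi libraries. Among these, Fcgr1 had a higher mean in culture, at 1525 CPM in cultured and 305.0 CPM in fresh MHC-IIhi cells, as had Adgre1 at 785 and 184 CPM, whereas C1qa stood at 228 and 902 CPM. Dendritic cell markers summed to 11.2 to 20.9 CPM in cultured and 71.5 to 102 CPM in fresh MHC-IIlo libraries, and to 138 to 317 CPM in cultured and 621 to 740.0 CPM in fresh MHC-IIhi libraries. In MHC-IIhi cells the lower sum was that of Itgax, at 39.7 CPM in cultured and 632 CPM in fresh libraries, while Ccr7 was at 146 and 5.07 CPM and Flt3 at 29.1 and 2.19 CPM. Their part in the results was not tested.

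Lactate changed no member past the threshold in either sort. In MHC-IIhi cells 0.250% of genes were called, 0.206% higher and 0.0441% lower with lactate, and none of the 7 members, of which 2 had an unadjusted p under 0.05, DESeq2 calling no member either. In MHC-IIlo cells 1.49% were called, 0.905% higher and 0.581% lower, again none of the members, with none at an unadjusted p under 0.05 and none by DESeq2. Limma on the authors' FPKM called no member in either sort with a filter on low values, but that filter removed H2-Oa and H2-Ob and so could not call them. Without the filter it called these 2 in MHC-IIhi cells (limma adjusted p = 0.0270 for each). The comparisons of lactate share their no-lactate libraries with those of culture.

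The H2-O chains were the members with the largest values in MHC-IIhi cells. H2-Oa averaged 1.49 ± 0.459 CPM with lactate and 0.700 ± 0.273 CPM without (n = 5 each), and H2-Ob 0.908 ± 0.327 CPM with lactate and 0.398 ± 0.116 CPM without. For each gene all 5 lactate libraries lay above all 5 no-lactate libraries, as in 1.96% of all genes tested. The log2 fold changes were 1.1004 ± 0.43 for H2-Oa (edgeR adjusted p = 0.383) and 1.18 ± 0.42 for H2-Ob (edgeR adjusted p = 0.335). Neither passed, and the counts were low, 20 to 43 reads of H2-Oa with lactate and 7 to 24 without, and 13 to 28 reads of H2-Ob with lactate and 5 to 14 without. Both also passed the filter on low counts only through the lactate MHC-IIhi group.

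H2-DMb2 averaged 5.60 ± 1.61 CPM with lactate and 3.73 ± 0.270 CPM without in MHC-IIhi cells, where 4 lactate libraries lay above all no-lactate libraries and library 3 below them (0.59 ± 0.31, edgeR adjusted p = 0.545). Both beta chain genes summed gave -0.12 (adjusted p = 0.895). H2-DMa averaged 48.1 ± 12.2 CPM with lactate and 47.6 ± 17.8 CPM without (0.03 ± 0.31), and H2-DMb1 48.9 ± 12.9 CPM with lactate and 56.3 ± 15.9 CPM without (-0.19 ± 0.21). Ifi30 averaged 251 ± 78.7 CPM with lactate and 290.3 ± 67.9 CPM without (-0.20 ± 0.27), and Ctss 7212 ± 1521 CPM with lactate and 7508 ± 1756 CPM without (-0.05 ± 0.25). All of these overlapped, and standard errors of 0.21 to 0.31 on the log2 scale leave room for modest changes in either direction.

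In MHC-IIlo cells H2-DMa averaged 26.2 ± 12.96 CPM with lactate and 21.7 ± 4.36 CPM without (0.27 ± 0.31), and H2-DMb1 17.3 ± 4.50 CPM with lactate and 18.3 ± 4.01 CPM without (-0.08 ± 0.21). Ifi30 averaged 330.4 ± 129.8 CPM with lactate and 377 ± 85.0 CPM without (-0.19 ± 0.27), and Ctss 7279.9 ± 2497 CPM with lactate and 8575 ± 1239 CPM without (-0.24 ± 0.25). Library 5 was the lowest of the lactate group for every member but H2-Ob. Without it the log2 fold changes were 0.52 for H2-DMa, 0.06 for H2-DMb1, 0.04 for Ifi30, -0.02 for Ctss, -0.18 for H2-DMb2 and 0.89 for H2-Oa, and none passed. H2-DMb2 averaged 0.136 ± 0.134 CPM with lactate and 0.198 ± 0.0807 CPM without (-0.50 ± 0.51, and -0.08 for both beta chain genes summed), and H2-Oa 0.170 ± 0.132 CPM with lactate and 0.113 ± 0.0701 CPM without (0.57 ± 0.61). H2-Ob had 7 reads with lactate and 13 without over 5 libraries each, so no fold change is given. The lactate and no-lactate libraries overlapped for all 7 members in MHC-IIlo cells, whereas 5.65% of all genes had none overlapping.

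The difference between the sorts in their response to lactate was tested as well. It passed for 0 of 13593 genes in edgeR, with 1018 genes at an unadjusted p under 0.05, and for 3 genes in DESeq2. Among the members H2-DMb2 had -1.09 ± 0.60 (edgeR adjusted p = 0.666), against 0.04 for both beta chain genes summed (adjusted p = 0.979), and H2-Ob was the only one with an unadjusted p under 0.05 (edgeR adjusted p = 0.661). No member was shown to respond to lactate differently in MHC-IIlo and MHC-IIhi cells.

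Around the members, lactate altered few genes of the pathway. In MHC-IIhi cells the cystatin gene Stfa3 (1.90) was the only gene called in the 6 lists. In MHC-IIlo cells Stfa3 (2.12) and Cd9 (0.65) were higher. The class II chains H2-Aa (-2.20) and H2-Eb1 (-2.50) were lower, with edgeR adjusted p of 0.0367 for H2-Aa and 0.0372 for H2-Eb1. H2-Aa averaged 4.22 ± 2.58 CPM with lactate and 19.4 ± 19.3 CPM without, and H2-Eb1 1.58 ± 0.684 and 9.02 ± 11.7 CPM (SD). Without lactate the spread was thus about as large as the mean or larger, and how far these 2 calls rest on single libraries was not tested. H2-Ab1 (-0.86, edgeR adjusted p = 0.220), Cd74 (-0.88, adjusted p = 0.208) and Ciita (-1.92 ± 0.59, adjusted p = 0.0925) did not pass in MHC-IIlo cells. In MHC-IIhi cells H2-Ab1 had -0.16, Cd74 -0.26 and Ciita 0.33.

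**Figure D5:**
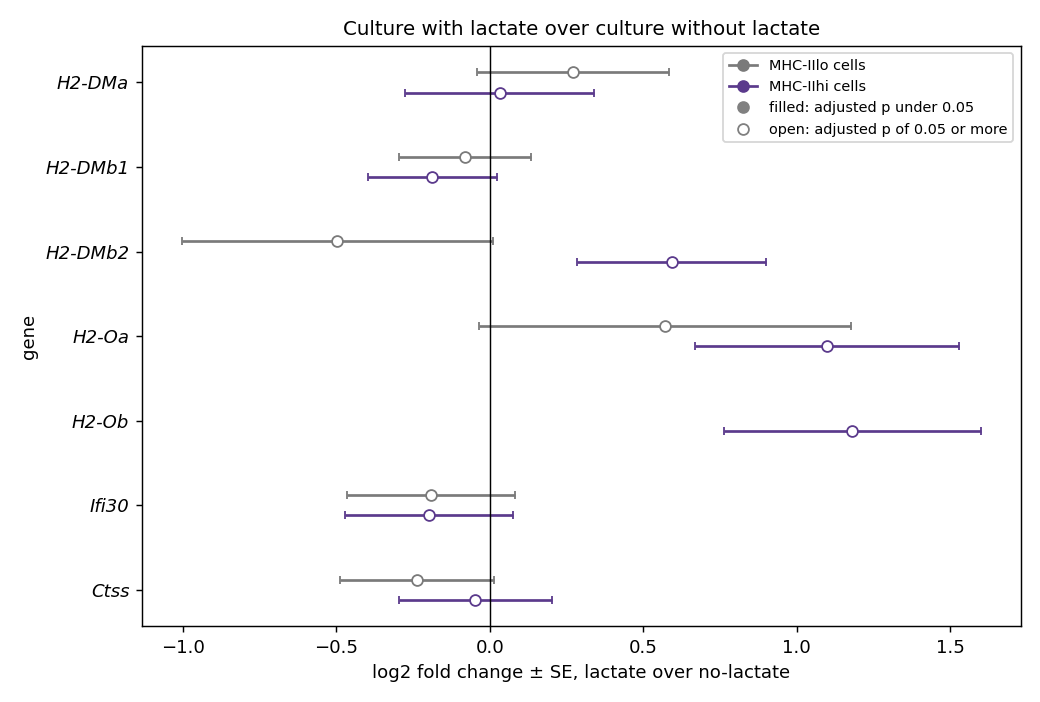
Log2 fold change of lactate over no-lactate culture for each member, in MHC-IIlo and MHC-IIhi cells, with bars of 1 standard error. H2-Ob in MHC-IIlo is left out because both groups averaged 3 reads or fewer per library. H2-Oa and H2-Ob in MHC-IIhi lie highest, at 1.1004 and 1.18, and no gene in the plot passed the threshold.

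Across all 6 groups, 5 of the 7 members were highest in fresh MHC-IIhi cells without reaching any other group: H2-DMa, H2-DMb1, H2-DMb2, H2-Ob and Ifi30. H2-Oa was highest there too, but its range reached that of lactate MHC-IIhi cells, which came next. For H2-DMa the order went on with fresh MHC-IIlo, lactate MHC-IIhi, no-lactate MHC-IIhi, lactate MHC-IIlo and no-lactate MHC-IIlo cells, each of the 4 cultured groups overlapping its neighbour. For Ifi30 the 5 groups after the first all overlapped their neighbours, from fresh MHC-IIlo down to lactate MHC-IIhi cells. Ctss instead had the 4 cultured groups above both fresh groups, with a gap between lactate MHC-IIhi, the lowest cultured group, and fresh MHC-IIlo cells. Among the cultured groups alone, both Ifi30 and Ctss had the highest mean in no-lactate MHC-IIlo and the lowest in lactate MHC-IIhi cells.

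The genes whose levels ran most closely with each member over the 30 libraries are named as a description, since these libraries share their sort and culture. The measure was Pearson's r of log2 CPM among 8438 genes. For the H2-DM chains they were Ccdc80 (0.97), Itgax (0.97) and Ucp2 (0.96) with H2-DMa, Rin3 (0.98), Il1r2 (0.97) and Twf2 (0.97) with H2-DMb1, and Lsr (0.97), Pilrb2 (0.96) and Casp6 (0.96) with H2-DMb2. For the H2-O chains they were H2-Ab1 (0.90), Pitpnm1 (0.88) and Traf5 (0.88) with H2-Oa, and Il1r2 (0.96), Rin3 (0.96) and Itgax (0.96) with H2-Ob. Ifi30 ran with Smdt1 (0.95), Myl6 (0.95) and Atpif1 (0.95), and Ctss with Apobec1 (0.97), Akr1a1 (0.97) and Tlr13 (0.97). H2-Oa was the only member whose list held a classical class II gene.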

How the data were processed

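Per the submitters' processing notes, reads were processed with Trimmomatic, STAR and featureCounts on GRCm38, in versions not given in the sources used here. The authors deposited raw counts per gene and a table of FPKM for 13778 genes. In that FPKM table Ctss has only 2 distinct values. Multiplied by gene length, its FPKM is at the highest value of the library in 28 of 30 libraries, so it was not used.

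Counts were analysed with edgeR 4.0.16 in R 4.3.3 (filterByExpr with a minimum count of 10, TMM, quasi-likelihood F test, Benjamini-Hochberg adjustment over all genes tested), as 9 comparisons in 3 fits: fresh libraries, cultured libraries, and fresh with no-lactate libraries. DESeq2 1.42.0 and limma 3.58.1 on log2(FPKM + 1) or log2(FPKM + 0.1) served as alternatives. In the FPKM fits fold changes of low genes are understated, and that of the abundant Ifi30 between the fresh sorts was smaller too. Scripts were tested on simulated counts. Members and gene lists were chosen with earlier results of these data known. From each list the 2 highest and 2 lowest genes past the threshold were named, except 1 that is not reported here.

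Same-numbered fresh MHC-IIlo and MHC-IIhi libraries deviated together in all 5 pairs (r of 0.179 to 0.719), and blocking on the number called 5004 genes rather than 3737 and changed no member's call. The shared numbers of the other groups did not pass that check in every pair. No libraries were duplicates. Floors of 3 counts cover counting error only.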

Additional observations from a re-analysis of the deposited data

Results flagged for a closer look

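In 9 of the 42 sets of 5 libraries (7 genes in 6 groups), 1 library lay far from its nearest companion relative to the spread of the set, as chance does in about 1 in 20 sets. No-lactate MHC-IIlo 3 had 29.2 CPM of H2-DMa (18.04 to 21.1 in the others) and 10706 CPM of Ctss (7482 to 8337). Lactate MHC-IIlo 5, whose whole profile stood apart, had 2897 CPM of Ctss (7864 to 9034). Lactate MHC-IIhi 1 had 71.0 CPM of H2-DMb1 (38.7 to 47.2), and lactate MHC-IIhi 6 had 2.28 CPM of H2-Oa (1.09 to 1.39) and 1.49 CPM of H2-Ob (0.694 to 0.811). H2-DMb2 stood at 9.07 CPM in fresh MHC-IIlo 2 (5.99 to 6.14) and at 4.19 CPM in no-lactate MHC-IIhi 7 (3.49 to 3.68). Fresh MHC-IIhi 4 had 896 CPM of Ifi30 (718 to 763).

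The interaction of culture with the sort passed in edgeR for 4 members. It was 1.17 on the log2 scale for H2-DMa, 1.65 for H2-DMb1, 1.96 for H2-Ob and 0.84 for Ifi30. Nothing is read from the value of H2-Ob, which was kept only through the fresh groups. Its 5 no-lactate MHC-IIlo libraries held 13 reads in all, and its call was lost without no-lactate MHC-IIlo 3, 4 or 6. With all 30 libraries in 1 fit, H2-DMa (adjusted p = 0.0504) and Ifi30 (adjusted p = 0.118) no longer passed.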

How the results depend on the processing

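Over the 9 comparisons, 34 member results passed the threshold, and none of them changed direction in any alternative run; they kept their call in 857 of the values computed and lost it in 37. Of the 29 that did not pass, 8 values passed with their sign kept and 48 changed sign. Among the latter, H2-DMb2 in the interaction with culture passed with FPKM + 1, both filtered and unfiltered. FPKM fits counted 3 members in the MHC-IIlo to MHC-IIhi comparisons of no-lactate and of lactate cultures (log2(FPKM + 1) or + 0.1, filtered). Their filter removed H2-Oa and H2-Ob from these comparisons, and FPKM could not be used for Ctss. For lactate in MHC-IIhi cells, 34 genes passed, against 53 with all 30 libraries, 133 with DESeq2, 59 with FPKM + 1 unfiltered (2 members) and 81 with the replicate block. In MHC-IIlo cells 202 passed, against 531 with all 30 libraries, 715 with DESeq2 and 1111 with the replicate block. The interaction with lactate gave 0, against 1, 3 and 2 in the same alternatives. The interaction with culture gave 4 members, and 2 (all 30 libraries) to 6 (FPKM + 1) in the alternatives. Leaving out 1 library gave 8 to 54 genes for lactate in MHC-IIhi, 53 to 758 in MHC-IIlo (758 without lactate MHC-IIlo 1, 133 without lactate MHC-IIlo 5) and 0 to 8 for the interaction. The cause was not tested.

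Sign changes occurred only in results that did not pass in edgeR as reported. MHC-IIlo to MHC-IIhi with lactate, Ctss: -0.033 with the block and -0.081 to 0.22 leaving out 1 library. Lactate in MHC-IIhi, H2-DMa: -0.15 with the block and -0.14 to 0.25 leaving out 1 library; Ctss -0.18 to 0.035. Lactate in MHC-IIlo, leaving out 1 library, gave -0.18 to 0.065 for H2-DMb1 and -0.32 to 0.044 for Ifi30. The interaction with lactate gave H2-DMa -0.0188 (FPKM + 0.1) and -0.0031 (FPKM + 1), and Ifi30 -0.12 and -0.11; leaving out 1 library gave -0.0087 to 0.29 for H2-DMb1, -0.12 to 0.25 for Ifi30 and -0.27 to 0.029 for Ctss. Culture in MHC-IIlo gave H2-Oa 0.20 (FPKM + 0.1), 0.043 (FPKM + 1) and -0.47 to 0.29 leaving out 1 library, and the interaction with culture gave H2-DMb2 1.43 with FPKM + 1, where it passed (limma adjusted p = 2.0e-07), against -0.11 with FPKM + 0.1, which did not. H2-O values are limited by depth, all 10 cultured MHC-IIlo libraries holding fewer than 10 reads of either chain. The replicate block changed no member's call.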
